A study of Mus musculus with 6 samples.

Results

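The genes described here are the amino acid and peptide transporters of the mouse, the membrane carriers of the solute carrier families Slc1, Slc3, Slc6, Slc7, Slc15, Slc36, Slc38 and Slc43. They were taken by symbol alone, from probe sets annotated with exactly 1 gene, and 69 of the 19938 genes measured were matched. The rule also matched Slc6a19os and Slc7a6os, which are named for lying opposite a transporter gene and are not carriers, so 67 carriers remain. Each gene is represented by its probe set with the highest mean over all arrays.

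RNA came from crypts of the intestine, the pits in which the stem and progenitor cells of its epithelium lie, with 1 Affymetrix array for each mouse. The 3 control mice are labelled only as control, and which alleles they carry is not given. The 3 YAP Tg mice carry, by the series title, YAP-S127A with Villin-rtTA. YAP-S127A is a form of the Hippo pathway coactivator YAP that lacks an inhibitory phosphorylation site, and the Villin promoter drives the doxycycline-dependent activator rtTA in the epithelium of the intestine, villus as well as crypt. Doxycycline was given for 2 days, and whether the control mice received it is not stated separately, so drug and transgene cannot be told apart. Age, sex and intestinal segment are likewise not given. The titles number the mice within a group, and p-values measure the spread between these mice. Values are log2 signals, so a difference of 1 is a doubling, and every log2 change is transgenic minus control.

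Dietary protein is taken up by enterocytes as free amino acids and as di- and tripeptides. Apical carriers bring these in from the lumen, mostly coupled to sodium or protons, and basolateral carriers hand them on to the blood. Some carriers work as pairs, in which a heavy chain (Slc3a1 or Slc3a2) brings a light chain of the Slc7 family to the membrane. Another group supplies dividing cells with glutamine, leucine, cystine and arginine. YAP has been linked to members of this last group, Slc7a5 and Slc38a1 among them, in cultured cancer cells, which makes the comparison of absorptive with growth-linked carriers a question for these crypts.

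Markers of cell types were read beside the tissue label. The lists held no marker of crypt cells, so they cannot check the label or show how much RNA came from crypts. All 8 markers of epithelium and all 10 of villus enterocytes lay above the median of all genes, so the preparations held RNA of differentiated absorptive cells. The lowest control mean among the 10 villus markers was 11.3, where the median signal of all genes was 6.80. Of the epithelial markers 4 of 8 were higher by limma's test and none lower, beside 7.5% and 6.7% of all genes, with log2 changes of 1.53 (Krt18), 0.45 (Cdh1), 0.42 (Cldn7) and 0.28 (Krt8). By limma's test, 10 of 11 T cell and intraepithelial lymphocyte markers were higher in the transgenic crypts, and their log2 summed signal was 13.4 to 13.7 in control and 14.8 to 15.1 in transgenic arrays. Of 12 macrophage and myeloid markers 4 were higher and 1 lower, and none of the markers of fibroblasts, smooth muscle, endothelium, enteric neurons and glia or B cells passed the test. No marker of smooth muscle, endothelium or neurons and glia lay above the median of all genes, so their lack of change says little. The fibroblast marker Dcn was uneven among control mice 1, 2 and 3, at 5.51, 8.77 and 6.29, while Col1a1 was 6.87, 7.05 and 7.14.

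Across the carriers, 9 genes were lower and 1 was higher in the transgenic crypts (limma, adjusted p below 0.05), and 59 did not pass. The 10 genes are 14.5% of the 69, against a background of 14.2% of all genes called in either direction, so the share called was near that of all genes. By direction, 13.0% of the 69 were lower, against 6.7% of all genes, and 1.45% were higher, against 7.5%. The carriers that fell were Slc6a20a, Slc7a8, Slc6a4, Slc43a2, Slc36a1, Slc7a15, Slc7a4, Slc3a2 and Slc38a4, in order of size, and the first 6 fell more than 2-fold. The median log2 change of the 69 genes was 0.01, beside 0.03 for all genes. Counted without a test, the groups did not overlap for 17 genes that were lower and 6 that were higher in all transgenic mice, where 17% and 16.5% of all genes did so.

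Many of these carriers serve brain, kidney or liver and gave little signal. Of the 69 genes, 32 lay above the median signal of all genes. Of these 32, 8 were lower and none was higher. In the same fit 11.7% of all genes above that median were lower and 12.7% were higher. Of the 37 genes at or below the median, 2 passed the test, and 4 genes lay under the level of presumed array control probe sets (their median on each array) in both groups. A carrier with such a low signal may not be expressed in crypts, and its lack of change says little.

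Most of these calls depended on which array was left out. Slc36a1 and Slc43a2 fell with each of the 6 arrays left out in turn. The other 7 decreases were lost when control mouse 1, 2 or 3 was left out, with limma's adjusted p between 0.0503 and 0.137, while their direction stayed. In those settings 2 carriers were lower and none higher by limma, while 1.85%, 2.11% and 2.32% of all genes were lower and 3.38%, 3.7% and 3.36% higher. Without transgenic mouse 1, 2 or 3 the lower carriers numbered 11, 13 and 8, against 4.46%, 19.5% and 4.07% of all genes. The higher carriers numbered 2, 2 and 0, against 5.72%, 14.1% and 5.36%. Without transgenic mouse 2 the share of lower carriers was thus slightly below that of all genes. Slc7a4 and Slc38a4 were lost without transgenic mouse 3. The SD was larger in the transgenic than in the control group for 79.7% of the matched genes and 75.1% of all genes. Whether this difference in spread bears on the lost calls was not tested.

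**Figure D1:**
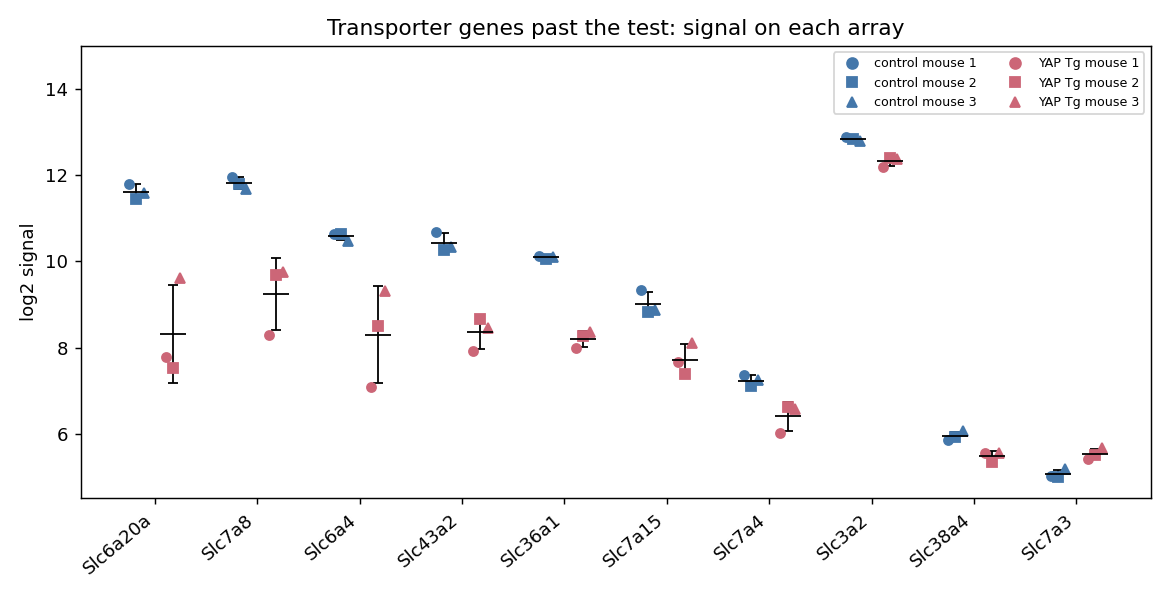
Log2 signal (y axis) of the 10 transporter genes past the test (x axis) on each array, in blue for control and red for YAP Tg mice, with a symbol per mouse; black bars give mean and SD (n = 3). All transgenic points lie below the controls for 9 genes and above them for Slc7a3, and those of Slc6a20a, Slc7a8 and Slc6a4 are widely spread.

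Promoter sequences were read for letters bound by factors of interest, since YAP acts on DNA through TEAD factors and ATF4 through CARE elements. RefSeq windows of the assembly GRCm38.p6, from 250 bases before to 50 after a gene start, were at hand for 51 of the 69 genes (72 windows). The TEAD letters GGAATG, read on both strands, stood in 12 of the 72 windows (16.7%), against 14.7% of all 32851 windows. Counted by gene, 16.6% of all genes with a window had them, and 15.1% of those tested here. Of the matched genes 11 of 51 (21.6%) had them, and 3 of the 8 lowered genes with a window. Those of the 3 are shown because these genes fell, each as 30 bases 5′ to 3′ on the gene's strand with the TEAD letters, or their reverse complement, in capitals.
Slc36a1, plus strand, chr11:55204286-55204315: aggaggagcacGGAATGgagcggcacgtga
Slc43a2, plus strand, chr11:75531516-75531545: cccagccccccCATTCCtcttgtttgtctc
Slc6a4, plus strand, chr11:76998371-76998400: ctgtatgtgcaGGAATGagtggggggctct

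The CARE letters TGATGNAA, read on both strands, stood in 6 of the 72 windows (8.33%), against 3.97% of all windows. Counted by gene, 4.51% of all genes with a window had them, and 3.62% of those tested here. Of the 5 growth-linked genes with a window Slc1a4 and Slc7a11 had them, and none of the 8 lowered genes with a window. Slc7a11 had them at 2 places, starting at -66 and -47 from the gene start. The others were Slc7a7, Slc15a5 and Slc6a21. The stretches of Slc1a4 and Slc7a11 are shown because both carriers belong to the programme that ATF4 induces during amino acid shortage, and neither passed the test here.
Slc1a4, minus strand, chr11:20332699-20332728: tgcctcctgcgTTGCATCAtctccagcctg
Slc7a11, first place, minus strand, chr3:50443661-50443690: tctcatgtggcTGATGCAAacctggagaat
Slc7a11, second place, minus strand, chr3:50443642-50443671: acctggagaatTTGCATCAtcatgcagccc

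The AP-1 letters TGANTCA and the HNF4 letters CAAAGTCCA were in none of the 12 windows of lowered genes. The CDX2 letters TTTATG were in that of Slc7a15. Of all windows 7.81%, 0.475% and 11.9% held the AP-1, HNF4 and CDX2 letters, and of the 72 windows 13.9%, 1.39% and 2.78%. With so few windows of lowered genes, these counts say little. Matches of different motifs overlapped in none of the 72 windows. A match describes the letters in a window and is not evidence of binding.

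Among the apical absorptive carriers, Slc6a20a and Slc36a1 fell, and the main carriers of peptides, neutral and cationic amino acids did not pass the test. Of 9 genes in this group 2 were lower and none higher, beside 6.7% and 7.5% of all genes. Their median log2 change was -0.37. Slc6a20a encodes the sodium-coupled carrier of proline and other imino acids. Its log2 signal was 11.80, 11.44 and 11.58 in control mice 1, 2 and 3 and 7.79, 7.52 and 9.61 in the transgenic mice. The groups did not overlap, and transgenic mouse 3 lay nearest the controls. The log2 change was -3.30 (SE 0.53, limma's adjusted p = 0.0120), a 9.86-fold decrease that ranked 21 among the decreases of all genes. Without control mouse 1, 2 or 3 its adjusted p was 0.0658, 0.0573 and 0.0635.

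Slc36a1 encodes a proton-coupled carrier of small amino acids such as proline, glycine and alanine, which sits in the apical membrane and in lysosomes. It stood at 10.12, 10.06 and 10.11 in control and at 7.99, 8.27 and 8.35 in transgenic crypts. Both groups were tight and far apart. The difference of -1.89 in log2 signal (SE 0.11, limma's adjusted p = 0.000595) was a 3.72-fold decrease. Its adjusted p was at most 0.0101 with any array left out. Its promoter window is 1 of the 3 shown above with TEAD letters.

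The genes beside these 2 did not pass the test. Slc6a20b, a close copy of Slc6a20a and next to it in the RefSeq gene order, had a log2 signal of 7.0, 6.31 and 6.48 in control and 5.76, 5.86 and 6.54 in transgenic crypts. Its groups overlapped (log2 change -0.54, limma's adjusted p = 0.225). An array can cross-hybridise between such copies, so the values of the pair may not be fully separate. Slc36a2 and Slc36a3, the neighbours of Slc36a1, had log2 changes of 0.06 and 0.12 and lay below the median signal of all genes. The differences between neighbours were not tested.

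The peptide carrier Slc15a1, which takes up di- and tripeptides, stood at 12.55, 12.59 and 12.48 in control and at 12.78, 12.42 and 12.71 in transgenic crypts. Its log2 change was 0.10, with an unadjusted 95% interval of -0.17 to 0.36 (limma's adjusted p = 0.592). Transgenic mice 1 and 3 lay above the controls and mouse 2 below them. Changes in Slc15a1 as large as that of Slc36a1 lie outside this interval.

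Slc3a1 and Slc7a9 form the heavy and light chain of the carrier for cystine and cationic amino acids, whose loss causes cystinuria. Slc3a1 was 11.57, 11.45 and 11.41 in control and 11.66, 11.24 and 12.01 in transgenic crypts (log2 change 0.16, 95% interval -0.31 to 0.62, limma's adjusted p = 0.621). Slc7a9 was 10.73, 10.98 and 10.76 in control and 11.20, 10.85 and 11.35 in transgenic crypts (0.31, interval -0.04 to 0.67, adjusted p = 0.208). Both chains were highest in transgenic mouse 3, and mouse 2 was the lowest of the transgenic mice for both. Without mouse 2, Slc7a9 rose by 0.45 (limma's adjusted p = 0.0242).

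Slc6a19, the main sodium-coupled carrier of neutral amino acids, stood at 11.63, 11.65 and 11.64 in control and at 11.68, 10.89 and 11.24 in transgenic crypts. The controls were nearly identical, and transgenic mouse 1 lay with them. The log2 change was -0.37 (interval -0.83 to 0.10, limma's adjusted p = 0.256), and without mouse 1 it passed the test at -0.57 (adjusted p = 0.0465). Slc1a1, the carrier of glutamate and aspartate, was 10.66, 10.85 and 10.75 in control and 8.46, 10.36 and 10.28 in transgenic crypts. All transgenic values lay below all controls, but mouse 1 stood far below the other 2. The change of -1.06 (SE 0.50) had limma's adjusted p of 0.215, and without mouse 1 a smaller change of -0.44 passed (adjusted p = 0.0406). Slc6a14, a broad carrier of neutral and cationic amino acids, was near the control probe sets in both groups.

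Markers of the villus were compared beside the apical carriers. Of the 10 villus enterocyte markers 2 were higher and 2 lower, beside 7.5% and 6.7% of all genes. Their median log2 change was 0.00, and their log2 summed signal was 16.1 to 16.2 in control and 15.9 to 16.2 in transgenic arrays. The fatty acid binding proteins Fabp1 and Fabp2 fell and Krt20 and Apob rose. Lactase (Lct) did not pass, at 11.89, 11.54 and 11.61 in control and 7.85, 8.78 and 10.89 in transgenic crypts. The part of villus cells in the apical values was not tested. In these bulk samples fewer cells of a type and less RNA per cell cannot be told apart.

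Of the basolateral carriers, Slc7a8 and Slc43a2, which export neutral amino acids, fell, and Slc7a7 and Slc7a6, which exchange cationic for neutral amino acids, did not pass the test. Slc7a8, a light chain that pairs with Slc3a2, was 11.96, 11.79 and 11.68 in control and 8.29, 9.69 and 9.75 in transgenic crypts. The lowest control was far above the highest transgenic value. The log2 change was -2.57 (SE 0.39, limma's adjusted p = 0.00976), and without control mouse 1, 2 or 3 the adjusted p was 0.0580, 0.0535 and 0.0524.

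Slc43a2, a uniporter of leucine, phenylalanine and other large neutral amino acids, was 10.69, 10.27 and 10.34 in control and 7.93, 8.67 and 8.45 in transgenic crypts. Here too transgenic mouse 1 was lowest and the groups were well apart. The difference of -2.08 in log2 signal (SE 0.21, limma's adjusted p = 0.00268) was a 4.24-fold decrease, and its adjusted p was at most 0.0231 with any array left out. Slc16a10, a basolateral uniporter of aromatic amino acids from another carrier family, fell from 10.43 ± 0.20 to 7.86 ± 0.63 (SD, n = 3 per group). It changed by -2.57 (SE 0.31, limma's adjusted p = 0.00459), with adjusted p at most 0.0338 when any array was left out.

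Slc7a7, the exchanger whose loss causes lysinuric protein intolerance, stood at 11.87, 11.71 and 11.68 in control and 11.45, 11.71 and 11.61 in transgenic crypts. The groups overlapped (log2 change -0.16, interval -0.39 to 0.07, limma's adjusted p = 0.317). Slc7a6, its widely expressed relative, was 7.78 to 7.93 in control and 7.62, 8.55 and 7.77 in transgenic crypts (adjusted p = 0.734). The 4 basolateral genes had a median log2 change of -1.12, 2 were lower and none higher, beside 6.7% and 7.5% of all genes. Slc7a7, Slc7a6 and Slc7a8 all pair with Slc3a2, and of these only the light chain Slc7a8 passed the test, though the differences among them were not tested.

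**Figure D2:**
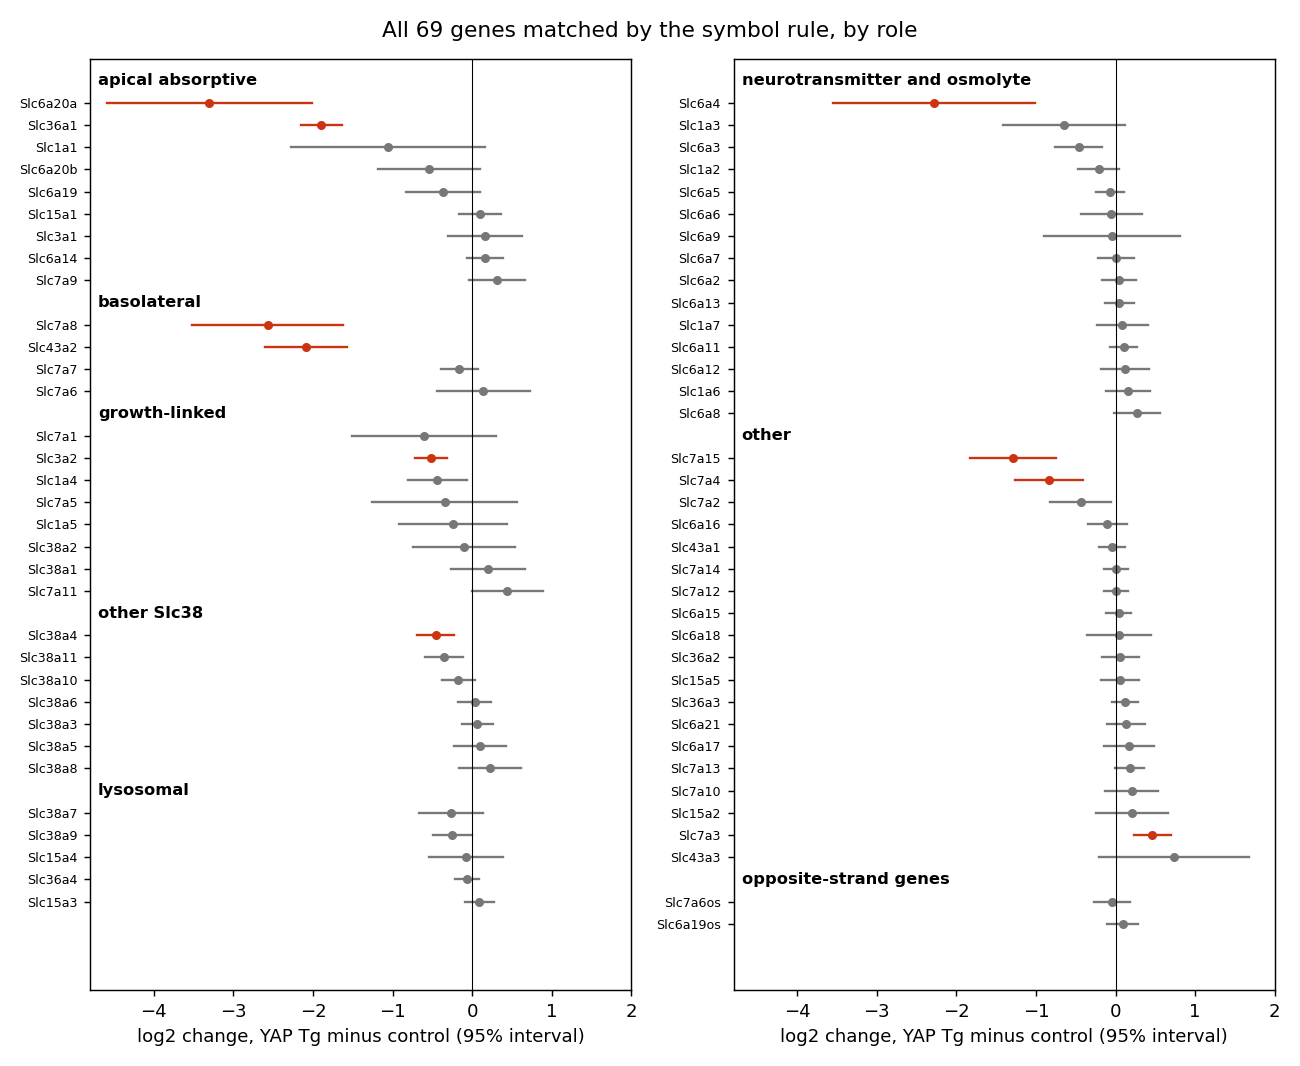
Log2 change (x axis, YAP Tg minus control) with its unadjusted 95% interval for each of the 69 genes (y axis), grouped by role and ordered by change; red marks genes with limma's adjusted p below 0.05. The 5 largest decreases sit among the apical, basolateral and neurotransmitter carriers.

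Among the growth-linked carriers, which import glutamine, leucine, cystine and arginine, only the shared heavy chain Slc3a2 passed the test. Of 8 genes 1 was lower and none higher, beside 6.7% and 7.5% of all genes. Their median log2 change was -0.29. Slc3a2, the heavy chain of the leucine and cystine exchangers, was 12.89, 12.83 and 12.79 in control and 12.19, 12.40 and 12.37 in transgenic crypts. The groups were close but did not overlap. The decrease of 1.43-fold (log2 change -0.51, SE 0.08, limma's adjusted p = 0.0118) was the smallest in fold but one among the 9 decreases, and its adjusted p was 0.0658, 0.0587 and 0.0503 without control mouse 1, 2 or 3.

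Slc7a5, the leucine-importing partner of Slc3a2, was 9.59, 9.49 and 9.65 in control and 8.46, 10.06 and 9.18 in transgenic crypts. The transgenic mice thus lay on both sides of the controls. The log2 change was -0.34, with an interval of -1.26 to 0.57 that reaches to both sides of 0 (limma's adjusted p = 0.580). Slc1a5, the glutamine and neutral amino acid exchanger, behaved alike, with 9.50, 9.21 and 9.22 in control and 8.61, 9.70 and 8.89 in transgenic crypts, with limma's adjusted p at 0.600. The arginine and lysine carrier Slc7a1 was 9.69, 9.35 and 9.36 in control and 8.07, 9.62 and 8.90 in transgenic crypts (adjusted p = 0.328). In each of these genes transgenic mouse 1 was lowest and mouse 2 highest of the transgenic mice.

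The glutamine carrier Slc38a1 was 9.75, 9.58 and 9.55 in control and 9.39, 10.03 and 10.05 in transgenic crypts (log2 change 0.20, interval -0.26 to 0.66, limma's adjusted p = 0.529). A second probe set of Slc38a1 gave a change of 0.14. Without transgenic mouse 1, Slc38a1 rose by 0.42 (adjusted p = 0.0472). Slc38a2, the system A carrier induced by amino acid shortage, was 10.67, 10.57 and 10.73 in control and 9.96, 11.05 and 10.65 in transgenic crypts (adjusted p = 0.825). The alanine, serine and cysteine carrier Slc1a4 had a log2 change of -0.44 (adjusted p = 0.117), with groups that did not overlap. The cystine importer Slc7a11, whose control mean lay below the control probe sets, differed by 0.44 (adjusted p = 0.170).

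The transgenic mice differed from each other in the growth-linked group. Measured from the mean of the controls, its 8 genes had a median difference of -0.70 (mouse 1), 0.39 (mouse 2) and -0.31 (mouse 3). Mouse 1 was the lowest transgenic mouse for 8 of 8 genes, against 36.4% of all genes, and mouse 2 lay above the control mean for 6 of 8, against 48.2% of all genes. Without mouse 2, Slc7a5 (-0.76), Slc7a1 (-0.98), Slc1a5 (-0.56) and Slc3a2 were lower, 4 of 8, where 19.5% of all genes were lower. Without mouse 1 the group's median was 0.01. T cell markers, whose median difference was 1.48, 1.43 and 1.31 in transgenic mice 1, 2 and 3, did not follow this order, and their part in the growth-linked values was not tested. The presumed control probe sets had a median of 5.33, 5.15 and 5.03 in transgenic mice 1, 2 and 3, against 4.97 to 4.99 in controls, and its part was not tested either.

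The apical group ranked the mice otherwise. Measured the same way, its median was 0.04 (mouse 1), -0.39 (mouse 2) and -0.05 (mouse 3). The basolateral group, at -1.40, -0.90 and -1.06, had the order of the growth-linked group. Among the transgenic mice, mouse 1 was lowest for 4 of its 4 genes and mouse 2 highest for 3. In mouse 1 the growth-linked median was thus below the controls and the apical median near them. In mouse 2 the growth-linked median was above and the apical median below the controls. By log2 summed signal, each transgenic array lay below all controls in both groups. The apical sums were 14.04, 13.73 and 14.16 in mice 1, 2 and 3, against 14.24 to 14.31 in controls. The growth-linked sums were 12.87, 13.48 and 13.24, against 13.52 to 13.62. A sum weights genes by signal, and Slc3a2, with a control mean of 12.84, weighs most in the growth-linked one. In mouse 2, Slc3a2 (12.40) and Slc1a4 lay below their control means and the other 6 of the 8 genes above theirs. The contrast between mice 1 and 2 thus depends on the measure. Over all 3 mice the medians of the apical and growth-linked groups, -0.37 and -0.29, were close, and both groups held single genes that fell beside others that did not pass. The difference between the 2 groups was not tested.

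**Figure D3:**
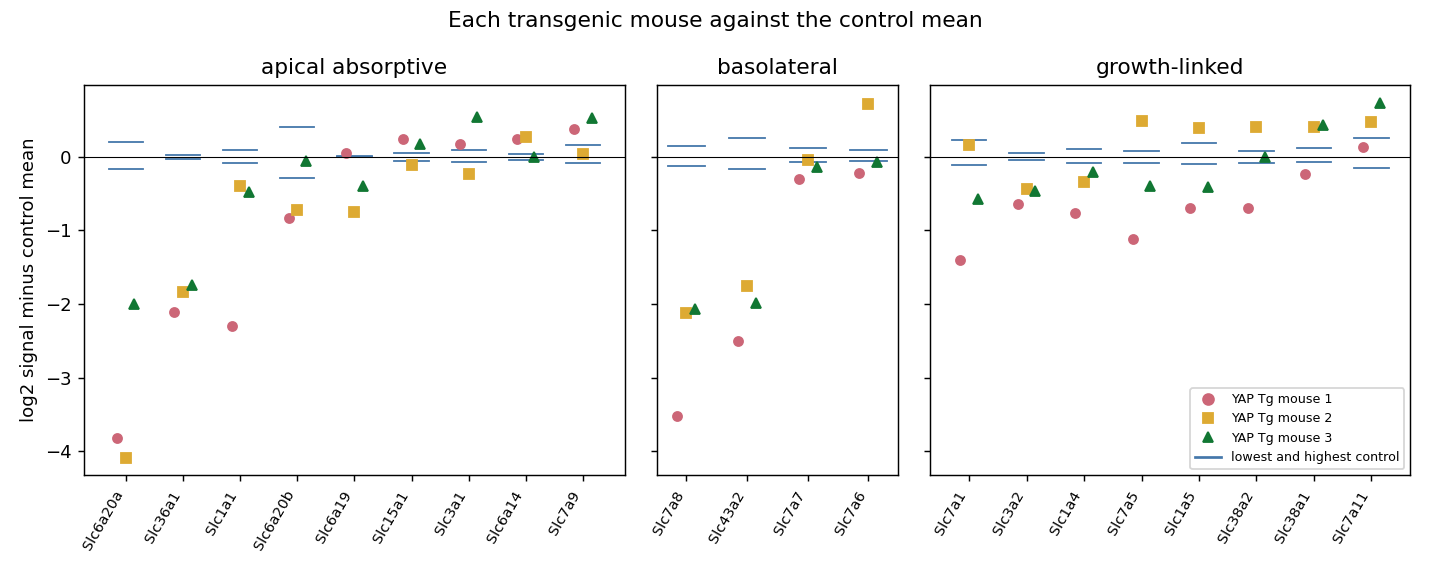
Log2 signal minus the control mean (y axis) of each apical, basolateral and growth-linked gene (x axis) in the 3 transgenic mice, with blue lines for the lowest and highest control. In the growth-linked panel mouse 1 is the lowest transgenic mouse for all 8 genes, and in the apical panel Slc6a20a and Slc36a1 lie far below the controls in each mouse.

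Of the carriers of neurotransmitters and osmolytes, 1 of 15 was lower (6.67%, beside 6.7% of all genes) and none higher (beside 7.5%). Their median log2 change was 0.01. Slc6a4, the serotonin transporter, which in the gut epithelium clears serotonin released by enterochromaffin cells, was 10.62, 10.63 and 10.48 in control and 7.09, 8.49 and 9.32 in transgenic crypts. The transgenic mice differed widely among themselves, yet all lay below the controls. The log2 change was -2.28 (SE 0.52, limma's adjusted p = 0.0369), and the adjusted p was 0.137, 0.136 and 0.127 without control mouse 1, 2 or 3. The creatine carrier Slc6a8 (log2 change 0.27, limma's adjusted p = 0.186) and the taurine carrier Slc6a6 (-0.05, adjusted p = 0.844) did not pass the test. The glutamate carrier Slc1a3 differed by -0.65 (adjusted p = 0.229) and passed without mouse 2 (-0.99, adjusted p = 0.0155).

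In the rest of the Slc38 family, Slc38a4, a system A carrier best known from liver and placenta, fell by 0.46 on the log2 scale (limma's adjusted p = 0.0277), from a signal below the median of all genes. Slc38a11 (-0.35), Slc38a8 (0.23), Slc38a10 (-0.17) and Slc38a6 (0.03) did not pass the test. Where 14.2% of all genes passed in either direction, none of the 5 lysosomal carriers did. They ranged from Slc38a7 (-0.26) to Slc15a3 (0.09), with Slc38a9, the arginine sensor of mTORC1, at -0.25 (limma's adjusted p = 0.160) and Slc15a4 at -0.08. The second probe set of Slc38a9 had a change of -0.03.

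Of the 19 remaining carriers 2 fell and 1 rose, 10.5% and 5.26%, beside 6.7% and 7.5% of all genes. Slc7a15, a light-chain relative, was 9.33, 8.82 and 8.86 in control and 7.67, 7.38 and 8.10 in transgenic crypts. Each transgenic value lay below each control (log2 change -1.29, SE 0.22, limma's adjusted p = 0.0146). Slc7a4, which resembles the cationic amino acid carriers, was 7.35, 7.10 and 7.25 in control and 6.01, 6.62 and 6.57 in transgenic crypts (-0.83, adjusted p = 0.0280). The only carrier that rose, Slc7a3, a cationic amino acid carrier of brain, was 5.03, 5.0 and 5.17 in control and 5.42, 5.50 and 5.67 in transgenic crypts (0.46, adjusted p = 0.0247). All its values are below the median of all genes, and its call was lost without any 1 control or without transgenic mouse 3 (adjusted p up to 0.110). Slc43a3, a carrier of purine bases, had the largest difference upward that did not pass (0.73, adjusted p = 0.259), with control mouse 2 at 8.35 inside the transgenic range. The unpassed Slc7a2 and Slc6a17 differed by -0.44 and 0.17, and the opposite-strand genes Slc6a19os and Slc7a6os by 0.09 and -0.04.

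Enzymes that break down or convert amino acids were lower or did not pass the test. Of 16 genes of amino acid catabolism, 8 were lower and none higher, beside 6.7% and 7.5% of all genes, with a median log2 change of -0.70. Glul, which makes glutamine from glutamate, changed by -1.0 (SE 0.09, limma's adjusted p = 0.00196), Glud1, glutamate dehydrogenase, by -1.31 (adjusted p = 0.00926) and Bckdha, of branched-chain ketoacid breakdown, by -0.60 (adjusted p = 0.00842). The mitochondrial arginase Arg2 went from 12.98 ± 0.02 (SD, n = 3) to 9.86 ± 1.13, a change of -3.12 (limma's adjusted p = 0.0137). Otc (-1.84), Cps1 (-1.61) and Oat (-1.48), enzymes of the enterocyte's synthesis of citrulline from glutamine and proline, also fell, as did Prodh (-1.11), the first enzyme of proline breakdown. These last 4 were named after their values were seen. Leaving out control mouse 1, 2 or 3 gave 2, 3 and 2 lower enzymes, where 1.85%, 2.11% and 2.32% of all genes were lower. There were 12 without transgenic mouse 2 and 5 without mouse 3, where 19.5% and 4.07% of all genes were lower. Glul and Bckdha were called in each of these settings.

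A list of 12 genes held peptidases and partners of the apical membrane, and the basolateral Slc16a10. Of these 12, 4 were lower and 1 higher, beside 6.7% and 7.5% of all genes. The meprin subunits went apart, Mep1a by -2.46 (limma's adjusted p = 0.0183) and Mep1b by 0.70 (adjusted p = 0.0109). The angiotensin-converting peptidase Ace changed by -1.33 (adjusted p = 0.0194) and the neutral endopeptidase Mme, chosen with its value known, by -1.64 (adjusted p = 0.0297). Slc16a10, given above, is the fourth lower gene. With any 1 control left out only the basolateral Slc16a10 remained lower and no apical gene did, where 1.85% to 2.32% of all genes were. Without transgenic mouse 1 there were 2 lower and without mouse 3 there were 7, where 4.46% and 4.07% of all genes were.

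Genes induced by the factor ATF4 during amino acid shortage, a programme to which Slc7a11, Slc7a5, Slc3a2 and Slc38a2 also belong, were compared as a list. Of 31 genes 5 were higher and 1 lower, 16.1% and 3.23%, beside 7.5% and 6.7% of all genes, with a median log2 change of 0.00. The glycyl-tRNA synthetase Gars rose by 1.02 (limma's adjusted p = 0.000920), the stress factor Atf3 by 2.22 (adjusted p = 0.00319), the translation inhibitor Eif4ebp1 by 1.13 (adjusted p = 0.00510) and the serine synthesis enzyme Psat1 by 1.48 (adjusted p = 0.0185). Without control mouse 2 or 3 there were 3 higher, where 3.7% and 3.36% of all genes were. Without transgenic mouse 2 there were 8 higher and 7 lower, where 14.1% and 19.5% of all genes were, so the lower count is near the background. Of 24 genes through which mTORC1 senses amino acids, 6 were lower and 1 higher, beside 6.7% and 7.5% of all genes. The sestrin Sesn2 (log2 change -0.40, limma's adjusted p = 0.0260) is in both lists, as 1 of these 6 and as the only lower gene of the ATF4 list. Sesn1, a sestrin that restrains mTORC1, changed by -1.27 (limma's adjusted p = 0.00222), the Rag GTPase Rragd by -1.07 (adjusted p = 0.00544) and the Ragulator subunit Lamtor2 by -0.55 (adjusted p = 0.0103). The sestrin Sesn3 rose by 0.45 (adjusted p = 0.00745). Leaving out control mouse 1, 2 or 3 left 2, 2 or 4 of the 6 lower genes, where 1.85%, 2.11% and 2.32% of all genes were lower. Leaving out transgenic mouse 1, 2 or 3 gave 3, 10 and 3, where 4.46%, 19.5% and 4.07% of all genes were lower.

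**Figure D4:**
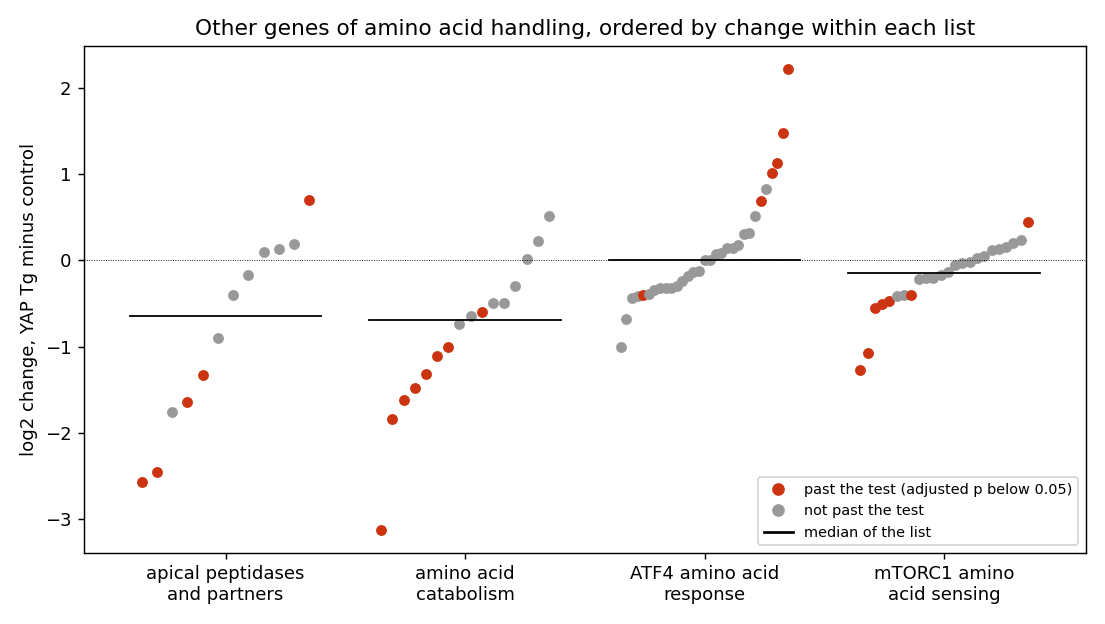
Log2 change (y axis, YAP Tg minus control) of each gene in 4 lists of amino acid handling (x axis), ordered by change within a list; red points passed limma's test and black lines are list medians. In the catabolism list 8 of 16 genes are red and all of them lie below 0, and in the ATF4 list the 4 largest increases are red.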

How the data were processed

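The authors deposited log2 signals of 35556 probe sets on 6 arrays, and the submitters' processing notes name Affymetrix Expression Console, version 1.1. How background was corrected and arrays normalized is not given. The log2 scale was read from the values. Probe sets numbered below the first named one (6617) were taken to be array controls. Genes came from 21789 probe sets with 1 symbol, and the probe set with the highest mean stood for a gene. Groups came from the sample titles. All 19938 genes entered 1 two-sided fit without covariates by lmFit and eBayes (limma 3.58.1, R 4.3.3), with Benjamini-Hochberg adjustment over all genes at 0.05. Intervals are unadjusted. The fit was tested on simulated data with the same SD in both groups. It recovered 72% of genes changed by 1 on the log2 scale and 96% of those changed by 2, and 5.08% of calls were false. The larger SD of the transgenic group was not simulated, so these shares may not hold for the real arrays. The labels do not say whether replicate numbers pair the mice. Deviations from group means correlated at -0.131, 0.0124 and 0.0983 between same-numbered arrays, and at -0.135 to 0.12 between others. With 3 arrays per group these correlations cannot exclude a pairing.

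The genes, roles and lists were chosen with earlier results of these data known. Every carrier past the test was named, with 12 chosen carriers, the 2 others of highest signal and both ends of the range in each role. Each further list gave up to 4 genes of smallest p among those past the test. Alternatives were leaving out each array, a replicate block, other normalizations, signal filters, priors, array weights, probe set averaging and thresholds.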

Additional observations from a re-analysis of the deposited data

How the results depend on the processing

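The count of 9 lower carriers ranged from 2 to 13 and that of 1 higher carrier from 0 to 2 when single arrays were left out. With the replicate number as a block, 5 were lower and 1 higher (all genes 3.65% and 4.89%), and the block cost Slc3a2, Slc6a4, Slc7a4 and Slc38a4 their calls. Whether these numbers pair the mice is not stated, and why the calls were lost was not tested. At an adjusted p below 0.01 there were 3 lower and 0 higher by limma (1.94% and 3.32%). Among genes above the median signal 8 were lower and 0 higher by limma when fitted alone (14.3% and 13.5%). Quantile normalization, median centring and the filter on control probe sets each gave 10 lower and 1 higher. Of all genes 6.83%, 7.12% and 8.85% were lower there, and 8.14%, 7.29% and 9.28% higher. Array weights also gave 10 lower and 1 higher, where 17.5% and 12.3% of all genes were. With these weights the share of lower carriers was below that of all genes.

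With single arrays left out, group medians ran from -0.39 to -0.18 (apical), -1.23 to -0.98 (basolateral), -0.52 to 0.01 (growth-linked), -0.052 to 0.062 (other Slc38), -0.23 to -0.052 (lysosomal), -0.045 to 0.073 (neurotransmitter and osmolyte) and 0.025 to 0.13 (remaining carriers). Among genes above the median signal, which leaves fewer genes, the other Slc38, lysosomal, neurotransmitter and remaining groups had medians of -0.071, -0.25, -0.055 and -0.83. The remaining group was at -0.013 under quantile normalization and 0.11 with array weights, and the neurotransmitter group at 0.081 with array weights. The causes were not tested. For the 39 named genes, 497 alternative results kept direction and side of the threshold, or did not pass in either fit whatever the direction, 31 lost a call and 9 gained one. Only the 10 carriers past the test could lose a call, so all 31 losses fell on them.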
